A study of Mus musculus with 12 samples.

Results

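The 10 genes described here encode amino acid transporters of the plasma membrane: Slc1a4, Slc1a5, Slc3a2, Slc7a1, Slc7a5, Slc7a6, Slc7a11, Slc38a1, Slc38a2 and Slc43a1. They were taken by symbol from the 23234 genes listed in the table, and all 10 were found; the set was drawn up with earlier results of these data known. The study exposed primary mouse acute myeloid leukaemia cells carrying NRASG12V and Mll-AF9, from (FVB/n X C57/BL/6J) F1 mice, to 1 of 3 inhibitors or to vehicle for 24 h and sequenced their RNA. All 4 groups therefore carry both oncogenes and all were grown with serum and GM-CSF. The groups are DMSO vehicle, PD325901 at 20 µM, RAD001 at 26 µM and GDC0941 at 20 µM, each with 3 libraries. PD325901 inhibits the kinase MEK, RAD001 (everolimus) inhibits mTOR complex 1, and GDC0941 inhibits PI3K. The compounds are structurally unrelated and their doses are not matched for potency. The labels do not say which promoters drive the oncogenes, nor whether replicates came from separate animals or cultures, so p-values measure only the spread between these samples. No group received a combination, and all groups were taken at 1 time.

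Cells import the amino acids they cannot make in sufficient amount through carriers of several solute carrier (SLC) families. Some couple uptake to sodium, while others are exchangers that release one amino acid for each one they take up, so the families work in series: sodium-coupled importers raise the glutamine pool that exchangers spend on leucine. Leucine and arginine inside the cell are sensed by the machinery that activates mTOR complex 1, and the transcription factor ATF4, made more when amino acids run short, is known to switch on many transporter genes. Dividing leukaemia cells are known to depend on glutamine, leucine and cystine uptake.

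Values are FPKM, fragment counts scaled to transcript length and library size, so levels of different genes can be set side by side per length. Changes are differences of log2(FPKM + 1), which understate the fold of low genes, with the standard error (SE) of a limma fit. Adjusted p-values are Benjamini-Hochberg over the 10305 genes whose average across libraries reached 1 FPKM, and a gene was called when its adjusted p was under 0.05. Of the 10 transporters, 9 passed that filter and were tested; Slc43a1 did not. The 3 comparisons with vehicle share the DMSO libraries, so their results are given side by side and not as independent of each other.

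Each library summed to between 462335 and 587581 FPKM, and its relative depth, read from the steps between low values, was 0.850 to 1.21 times that of DMSO replicate 1. The 10 transporters made up 0.0414% to 0.0712% of the summed FPKM of a library. Of 12 myeloid markers, 11 had a mean of at least 1 FPKM in every group, and Lyz2 was listed at 0 in all 12 libraries, which can be a failed estimate. Summed over a list, T and NK cell markers reached at most 8.80 FPKM, B cell markers 8.13, erythroid markers 3.64 and stromal and endothelial markers 1.79 in any library. T and NK sums were 0.373 to 4.82 FPKM in DMSO and 4.93 to 8.80 with PD325901. They were 0.372 to 2.64 FPKM with RAD001 and 0.133 to 1.48 with GDC0941. B cell sums were 4.59 to 5.96, 6.76 to 8.13, 0.961 to 2.13 and 0.643 to 2.23 FPKM in the same order. The B cell factors Pax5 and Ebf1 were listed at 0 in all 12 libraries. In bulk RNA, fewer cells of a type and less RNA per cell cannot be told apart.

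With the MEK inhibitor, transcripts of Slc1a4, Slc1a5, Slc38a2, Slc7a1, Slc7a5 and Slc7a6 fell and no tested transporter rose, by limma's adjusted p or at an unadjusted p under 0.05. The count of 6 of 9 called stands beside 46.6% of all genes called in that comparison, 28.2% lower and 18.4% higher. With the mTOR inhibitor 4 fell (Slc1a4, Slc1a5, Slc7a1 and Slc7a5) and 2 rose (Slc7a11 and Slc38a2), where 31.3% of all genes were called, 15.9% lower and 15.4% higher. With the PI3K inhibitor 3 fell (Slc1a4, Slc7a1 and Slc7a5) and 3 rose (Slc7a11, Slc7a6 and Slc1a5), where 24.3% of all genes were called, 12.7% lower and 11.6% higher. The median log2 change of the 9 was -0.83 with PD325901, -0.10 with RAD001 and -0.12 with GDC0941, beside -0.06, 0.00 and 0.02 over all genes tested. Slc1a4, Slc7a1 and Slc7a5 fell with each of the 3 inhibitors. Slc1a4 passed the 1 FPKM filter only through DMSO, where it averaged 3.26 FPKM. It averaged 0.993 FPKM with PD325901, 0.690 with RAD001 and 0.993 with GDC0941. Its entry into the test is therefore not independent of its fall.

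**Figure D1:**
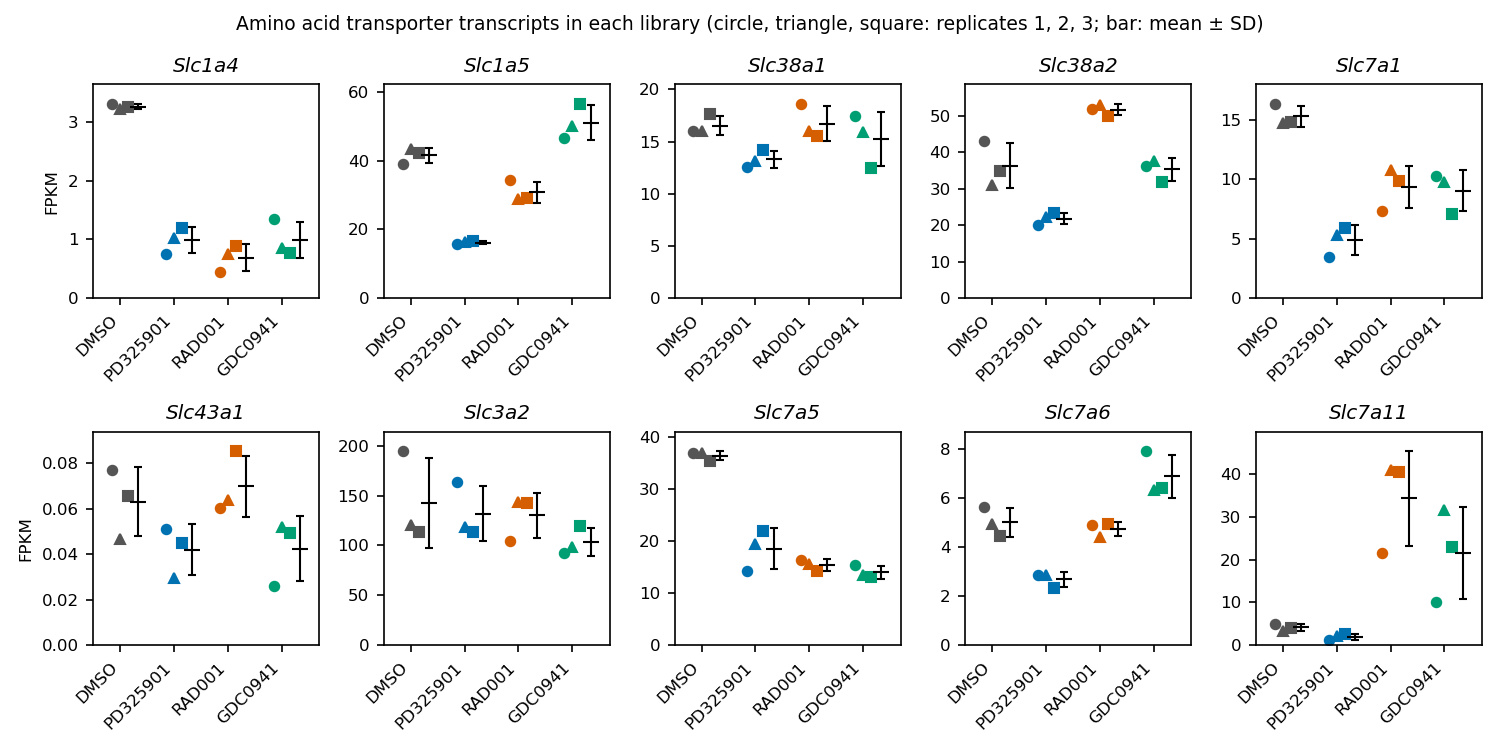
Level of each of the 10 transporters (vertical axis, FPKM, a separate scale per gene) in the 12 libraries, grouped by treatment on the horizontal axis; symbols are replicates 1 to 3 and bars the mean ± SD. Slc7a11 lay at 3.40 to 5.05 FPKM in DMSO and at 21.6 to 40.9 FPKM in RAD001, while Slc7a5 lay at 35.5 to 37.0 FPKM in DMSO and below 23 FPKM in every inhibitor library.

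The promoters of Slc7a11 and Slc1a4 hold letters of the composite element that ATF4 is known to bind with a C/EBP partner, and are shown because Slc7a11 rose and Slc1a4 fell with the same 2 inhibitors. RefSeq (GRCm38.p6, not the mm9 build of the expression files) gave promoter windows of 300 bases, 250 before to 50 after the start, for 7 of the 10 genes; Slc1a5, Slc7a5 and Slc38a1 had none. The element was searched as TGATGNAA on both strands, and its matches are in capitals. The first stretch is the 150 bases before the Slc7a11 start, chr3:50443614-50443763, minus strand. The second runs from 140 bases before to 10 after the Slc1a4 start, chr11:20332704-20332853, minus strand.
Slc7a11: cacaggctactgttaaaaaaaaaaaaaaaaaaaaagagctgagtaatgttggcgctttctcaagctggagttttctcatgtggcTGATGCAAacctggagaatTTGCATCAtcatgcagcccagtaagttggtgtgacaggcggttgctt
Slc1a4: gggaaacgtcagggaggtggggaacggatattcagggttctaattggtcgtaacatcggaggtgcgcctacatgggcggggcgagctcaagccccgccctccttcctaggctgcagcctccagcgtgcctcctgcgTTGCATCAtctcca

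Slc7a11 held 2 matches, facing each other at 66 to 59 and 47 to 40 bases before the start. Slc1a4 held 1, across the start itself. The other 5 genes with an entry, Slc3a2, Slc7a1, Slc7a6, Slc38a2 and Slc43a1, had no match in their windows. Over all 32851 windows of the same length 3.97% held the element and 23, or 0.0700%, held it at least 2 times. The E-box CACGTG, a site of MYC and its relatives, was present in 7.15% of all windows and in that of Slc43a1. The antioxidant element core TGACNNNGC, a site of the factor encoded by Nfe2l2, was present in 12.4% of all windows and in those of Slc43a1, Slc7a1, Slc7a6 and Slc38a2. A match is a run of letters, not a bound site, and an absent match covers this window only.

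Slc1a4 and Slc1a5 are the neutral amino acid exchangers of the SLC1 family; both carry alanine, serine and cysteine, and Slc1a5 is a main route for glutamine. Slc1a4 was 3.30, 3.22 and 3.25 FPKM in the DMSO libraries. It was 0.757, 1.03 and 1.19 FPKM with PD325901. It was 0.438, 0.743 and 0.888 FPKM with RAD001 and 1.35, 0.860 and 0.773 FPKM with GDC0941. Every inhibitor library lay below every DMSO library, and the inhibitor groups overlapped. Mean FPKM was 3.28-fold lower with PD325901 (log2 change -1.10 ± 0.14 SE, adjusted p = 0.000125), 4.73-fold lower with RAD001 (-1.34 ± 0.14, adjusted p = 9.88e-05) and 3.28-fold lower with GDC0941 (-1.11 ± 0.14, adjusted p = 0.000445). No difference between inhibitors passed: PD325901 minus GDC0941 was 0.00 on the log2 scale, with a 95% interval of -0.31 to 0.32, and PD325901 minus RAD001 was 0.24, with an interval of -0.07 to 0.55.

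Slc1a5 separated the inhibitors that Slc1a4 did not. It was 39.1, 43.4 and 42.4 FPKM in DMSO and 15.7, 16.3 and 16.5 FPKM with PD325901. It was 34.4, 29.0 and 29.3 FPKM with RAD001 and 46.7, 50.1 and 56.6 FPKM with GDC0941. The 4 groups did not overlap, and their order from low to high was PD325901, RAD001, DMSO, GDC0941. The fall was larger with PD325901 (-1.31 ± 0.09, adjusted p = 2.68e-06) than with RAD001 (-0.42 ± 0.09, adjusted p = 0.00532); the difference between the inhibitors was -0.89 (adjusted p = 1.51e-05). The higher level with GDC0941 (0.29 ± 0.09, adjusted p = 0.0399) is a weak call. It ended without DMSO replicate 1, 2 or 3 or GDC0941 replicate 2 or 3, with adjusted p from 0.070 to 0.130, and under median-ratio scaling (adjusted p = 0.0548) or quantile normalization (adjusted p = 0.0633). Slc1a5 was lower with RAD001 than with GDC0941 by a log2 difference of -0.71 (adjusted p = 0.000468) and lower with PD325901 than with GDC0941 by -1.60 (adjusted p = 3.17e-07).

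Slc38a1 and Slc38a2 are sodium-coupled importers of small neutral amino acids, glutamine among them; Slc38a2 is known to be induced when amino acids are withdrawn. Slc38a2 was 42.9, 31.0 and 35.0 FPKM in DMSO and 20.0, 22.2 and 23.2 FPKM with PD325901. It was 52.0, 53.1 and 49.9 FPKM with RAD001 and 36.3, 37.7 and 31.8 FPKM with GDC0941. The PD325901 libraries lay below all DMSO libraries, the RAD001 libraries above them, and the GDC0941 libraries among them. The change was -0.70 ± 0.11 with PD325901 (adjusted p = 0.000521), 0.51 ± 0.11 with RAD001 (adjusted p = 0.00592) and -0.03 with GDC0941 (95% interval -0.28 to 0.22, adjusted p = 0.877). RAD001 exceeded GDC0941 by 0.54 (adjusted p = 0.00897), and PD325901 lay below RAD001 by a log2 difference of -1.21 (adjusted p = 7.61e-06).

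Slc38a1 varied less. It was 16.0, 16.0 and 17.6 FPKM in DMSO and 12.6, 13.2 and 14.2 FPKM with PD325901. It was 18.6, 16.0 and 15.5 FPKM with RAD001 and 17.5, 15.9 and 12.4 FPKM with GDC0941. The PD325901 libraries lay below all DMSO libraries, but the difference of -0.29 ± 0.12 missed the threshold (adjusted p = 0.0574). It passed when only those 2 groups were fitted (adjusted p = 0.0143) and with library weights (adjusted p = 0.00191). The interval of the difference was -0.25 to 0.27 for RAD001 and -0.37 to 0.14 for GDC0941. PD325901 minus RAD001 was -0.30 (adjusted p = 0.0478). That call ended with the replicate number as a block (adjusted p = 0.0526) and without any 1 PD325901 or RAD001 library, where adjusted p was 0.0531 to 0.156. It also ended with no filter (adjusted p = 0.0653), median-ratio scaling (0.0585), quantile normalization (0.103) and no variance trend (0.0516).

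Slc7a1 is the main carrier of the cationic amino acids arginine and lysine. It was 16.3, 14.7 and 14.9 FPKM in DMSO and 3.49, 5.27 and 5.88 FPKM with PD325901. It was 7.35, 10.8 and 9.89 FPKM with RAD001 and 10.3, 9.74 and 7.05 FPKM with GDC0941. All inhibitor libraries lay below DMSO, the PD325901 libraries lowest, and the RAD001 and GDC0941 libraries overlapped. Mean FPKM was 3.14-fold lower with PD325901 (-1.49 ± 0.18, adjusted p = 8.46e-05), 1.64-fold lower with RAD001 (-0.67 ± 0.18, adjusted p = 0.0166) and 1.70-fold lower with GDC0941 (-0.72 ± 0.18, adjusted p = 0.0153). Without RAD001 replicate 1 the second change was -0.52 (adjusted p = 0.0524), and without GDC0941 replicate 3 the third was -0.56 (adjusted p = 0.0599). PD325901 lay below RAD001 by a log2 difference of -0.82 (adjusted p = 0.00303) and below GDC0941 by -0.78 (adjusted p = 0.00407); RAD001 minus GDC0941 was 0.05, with an interval of -0.36 to 0.45.

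Slc43a1, a carrier of large neutral amino acids that needs no partner chain, was at the bottom of the range. It lay between 0.0468 and 0.0771 FPKM in DMSO, 0.0295 and 0.0513 with PD325901, 0.0606 and 0.0854 with RAD001 and 0.0261 and 0.0521 with GDC0941. Each inhibitor range overlapped that of DMSO, and the PD325901 and GDC0941 ranges lay below that of RAD001. At this level no difference was tested.

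Slc3a2 encodes the glycoprotein heavy chain, known as CD98, that carries several light chains of the SLC7 family to the cell surface; the light chain decides which amino acid is transported. It was the most abundant of the 10 per length in every library. Slc3a2 was 194, 120.2 and 113 FPKM in DMSO and 164, 118 and 114 FPKM with PD325901. It was 104, 143 and 142 FPKM with RAD001 and 91.9, 98.8 and 119 FPKM with GDC0941. All groups overlapped, and replicate 1 stood apart from replicates 2 and 3 in the DMSO, PD325901 and RAD001 groups, upward in the first 2 and downward in RAD001. No change passed: -0.09 with PD325901 (95% interval -0.56 to 0.39), -0.10 with RAD001 (-0.58 to 0.37) and -0.43 with GDC0941 (-0.90 to 0.05). Without replicate 1 of every group, RAD001 lay 0.29 above DMSO (adjusted p = 0.0244), 0.39 above GDC0941 (adjusted p = 0.00879) and PD325901 lay below RAD001 by -0.30 (adjusted p = 0.0164). Those signs differ from the main fit in the first and the last case, so the direction of Slc3a2 with RAD001 rests on the replicate 1 libraries.

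Slc7a5 pairs with Slc3a2 to form LAT1, the exchanger that brings in leucine and other large neutral amino acids for glutamine. Slc7a5 was 36.9, 37.0 and 35.5 FPKM in DMSO and 14.3, 19.5 and 22.1 FPKM with PD325901. It was 16.4, 15.7 and 14.2 FPKM with RAD001 and 15.5, 13.4 and 13.1 FPKM with GDC0941. Every inhibitor library lay below every DMSO library. Mean FPKM was 1.96-fold lower with PD325901 (-0.96 ± 0.13, adjusted p = 0.000193), 2.36-fold lower with RAD001 (-1.19 ± 0.13, adjusted p = 0.000128) and 2.60-fold lower with GDC0941 (-1.32 ± 0.13, adjusted p = 9.35e-05). RAD001 minus GDC0941 was 0.13, with an interval of -0.16 to 0.42. PD325901 lay above GDC0941 by 0.37 (adjusted p = 0.0367), although the groups overlapped; that call ended without PD325901 replicate 2 or 3 or GDC0941 replicate 2 or 3, where adjusted p was 0.0919 to 0.156. PD325901 minus RAD001 was 0.24 (adjusted p = 0.160) and, without PD325901 replicate 1, 0.40 (adjusted p = 0.00734).

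Slc7a6 pairs with Slc3a2 in an exchanger of cationic and neutral amino acids. It was 5.62, 4.95 and 4.46 FPKM in DMSO and 2.87, 2.85 and 2.34 FPKM with PD325901. It was 4.90, 4.41 and 4.93 FPKM with RAD001 and 7.90, 6.34 and 6.40 FPKM with GDC0941. The PD325901 group lay below, the GDC0941 group above, and the RAD001 group among the DMSO libraries. The change was -0.70 ± 0.11 with PD325901 (adjusted p = 0.000438), -0.06 with RAD001 (95% interval -0.30 to 0.18) and 0.39 ± 0.11 with GDC0941 (adjusted p = 0.025). The last call ended without DMSO replicate 2 or 3 or GDC0941 replicate 1, where adjusted p was 0.0594 to 0.0998. The difference of PD325901 from GDC0941 was -1.09 (adjusted p = 1.37e-05), that of PD325901 from RAD001 -0.64 (adjusted p = 0.000584), and that of RAD001 from GDC0941 -0.45 (adjusted p = 0.0179; without RAD001 replicate 2, adjusted p = 0.072).

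Slc7a11 pairs with Slc3a2 to form xCT, which takes up cystine, the source of cysteine for glutathione, and releases glutamate. Its promoter is the first sequence shown above. It was 5.05, 3.40 and 4.14 FPKM in DMSO and 1.14, 2.09 and 2.66 FPKM with PD325901. It was 21.6, 40.9 and 40.5 FPKM with RAD001 and 10.2, 31.5 and 22.9 FPKM with GDC0941. All RAD001 and GDC0941 libraries lay above DMSO, replicate 1 the lowest of each, and all PD325901 libraries lay below. Mean FPKM was 8.18-fold higher with RAD001 (2.72 ± 0.37, adjusted p = 0.000384) and 5.13-fold higher with GDC0941 (2.00 ± 0.37, adjusted p = 0.00299). RAD001 minus GDC0941 was 0.73, with an interval of -0.08 to 1.53. The difference with PD325901, -0.83 ± 0.37, missed the threshold (adjusted p = 0.0834) but passed with the replicate number as a block (adjusted p = 0.0332), with a pseudocount of 0.1 FPKM (adjusted p = 0.0453), with library weights (adjusted p = 0.0112) and when only those 2 groups were fitted (adjusted p = 0.0132). The other 6 alternatives that kept all libraries did not pass, with adjusted p up to 0.27 (a pseudocount of 5 FPKM, log2 change -0.40), nor did any fit without 1 library, with adjusted p up to 0.246. Without replicate 1 of every group the limma difference with PD325901 passed, at -0.50 (adjusted p = 0.0194). PD325901 lay below RAD001 by a log2 difference of -3.55 (adjusted p = 1.56e-05) and below GDC0941 by -2.83 (adjusted p = 7.8e-05). Myeloid marker sums also differed between the groups: 1681 to 1742 FPKM in DMSO, 1783 to 1842 with PD325901, 3249 to 3373 with RAD001 and 2382 to 2601 with GDC0941. Single myeloid markers went both ways. Of 11 tested, 5 were called higher and 2 lower with PD325901, beside the shares of all genes given above. With RAD001 these counts were 7 and 2, and with GDC0941 5 and 2. Mpo was 22.2 to 23.8 FPKM in DMSO, 17.4 to 23.4 with PD325901, 1.03 to 4.65 with RAD001 and 3.23 to 4.53 with GDC0941. Elane was 27.8 to 44.2, 24.7 to 37.3, 0.258 to 2.95 and 2.16 to 2.99 FPKM in the same order. Itgam went the other way, at 331 to 343, 226 to 230, 789 to 832 and 476 to 595 FPKM. Megakaryocyte marker sums, mostly Pf4, were 78.1 to 135, 14.6 to 42.4, 216 to 279 and 5.57 to 7.39 FPKM in the same order. Vwf of that list went the other way with PD325901, at 3.58 to 6.76 FPKM against 0.822 to 2.49 in DMSO. The part of these markers in the Slc7a11 result was not tested.

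**Figure D2:**
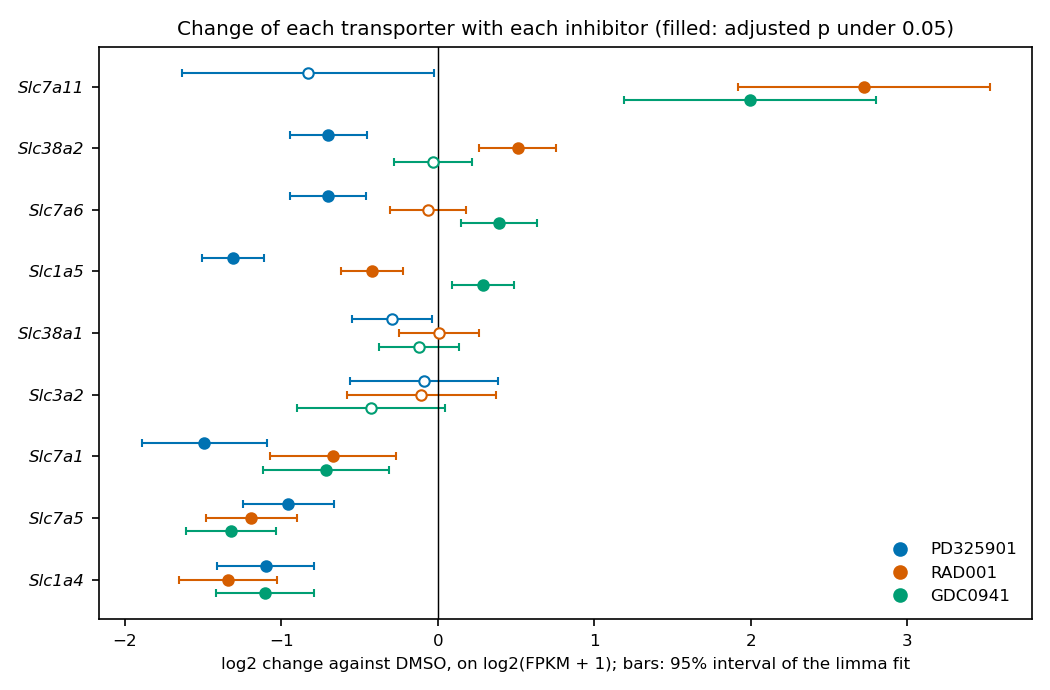
Log2 change against DMSO (horizontal axis, on log2(FPKM + 1)) of the 9 tested transporters (vertical axis) with each inhibitor; points are limma estimates, bars 95% intervals, and filled points have an adjusted p under 0.05. Slc1a4, Slc7a1 and Slc7a5 lie below 0 with all 3 inhibitors, and Slc7a11 lies at 2.72 with RAD001, 2.00 with GDC0941 and -0.83 with PD325901.

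Counted over all 9 tested genes, the MEK inhibitor differed from RAD001 and from GDC0941 in more transporters than those differed from each other. Against RAD001, 6 of 9 were lower with PD325901 and none higher, where 29.4% of all genes were called lower and 50.2% in either direction. Against GDC0941, 5 were lower and 1, Slc7a5, was higher, where 51.5% of all genes were called, 30.7% lower and 20.9% higher. Between RAD001 and GDC0941, 3 of 9 were called, Slc38a2 higher and Slc1a5 and Slc7a6 lower with RAD001, where 17.4% of all genes were called, 9.35% higher and 8.09% lower. All genes showed the same order of these pairs, and the difference between the counts was not tested. Against DMSO, 8 of 9 transporters lay below every vehicle library with PD325901, where 36.9% of all genes did, and none above, where 25.8% did. With RAD001, 2 lay above and 4 below every vehicle library, beside 25.3% and 25.6% of all genes. With GDC0941, 3 lay above and 3 below, beside 20.3% and 18.3% of all genes.

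The light chains of Slc3a2 changed in proportion as well as in amount. Among the summed FPKM of Slc7a5, Slc7a6 and Slc7a11, the share of Slc7a11 was 10.6%, 7.48% and 9.39% in DMSO and 6.22%, 8.58% and 9.83% with PD325901. It was 50.4%, 67.0% and 67.9% with RAD001 and 30.3%, 61.4% and 54.1% with GDC0941. The share of Slc7a5 was 77.6% to 81.6% in DMSO, 78.1% to 81.5% with PD325901, 23.8% to 38.2% with RAD001 and 26.2% to 46.2% with GDC0941. Thus Slc7a11 exceeded Slc7a5 in all 3 RAD001 libraries and in GDC0941 replicates 2 and 3, and in no DMSO or PD325901 library. Other carriers of large neutral amino acids, such as Slc43a1 and its relative Slc43a2, were not part of this comparison. These shares restate the levels above and were not tested separately. They depend on which light chains are summed. With Slc7a7 and Slc7a8 added, which was decided after the values were seen, Slc7a8 was the largest in DMSO at 44.4% to 48.9%, and Slc7a5 was 27.9% to 31.6%. On that wider sum Slc7a11 was 2.68% to 4.32% in DMSO, 1.38% to 3.41% with PD325901, 26.4% to 36.6% with RAD001 and 13.3% to 40.5% with GDC0941, so the RAD001 and GDC0941 libraries still lay above DMSO.

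The sum of the 3 light chains was 44.1 to 47.6 FPKM in DMSO, 18.3 to 27.1 with PD325901, 42.9 to 61.0 with RAD001 and 33.6 to 51.3 with GDC0941. Slc3a2 exceeded that sum in every library. The ratio of Slc3a2 to the sum was 4.08, 2.65 and 2.57 in DMSO and 8.97, 4.84 and 4.21 with PD325901. It was 2.43, 2.35 and 2.39 with RAD001 and 2.74, 1.93 and 2.81 with GDC0941. PD325901 lay above and RAD001 below all DMSO libraries, each with an exact two-sided permutation p of 0.1, the smallest that 3 against 3 allows, and an adjusted p of 0.2 over 12 such tests. GDC0941 overlapped DMSO (exact permutation p = 0.6). The mean ratio with PD325901 was 2.90 above that of DMSO, and 1.42 above it without PD325901 replicate 1. RAD001 minus DMSO was -0.71, and -0.22 without DMSO replicate 1; GDC0941 minus DMSO was -0.61, -0.12 without DMSO replicate 1 and -0.33 without GDC0941 replicate 2. Further light chains bear on the sum and on this ratio. The sum of 5 was 116.8 to 127.4 FPKM in DMSO and 75.1 to 82.7 with PD325901. It was 81.8 to 116.6 FPKM with RAD001 and 67.7 to 77.8 with GDC0941. All 3 inhibitor groups thus lay below DMSO, each with an exact permutation p of 0.1 and an adjusted p of 0.2. With Slc7a7 and Slc7a8 added, the ratio was 0.891 to 1.66 in DMSO, 1.46 to 1.98 with PD325901, 1.23 to 1.29 with RAD001 and 1.21 to 1.76 with GDC0941, and all groups overlapped DMSO.

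**Figure D3:**
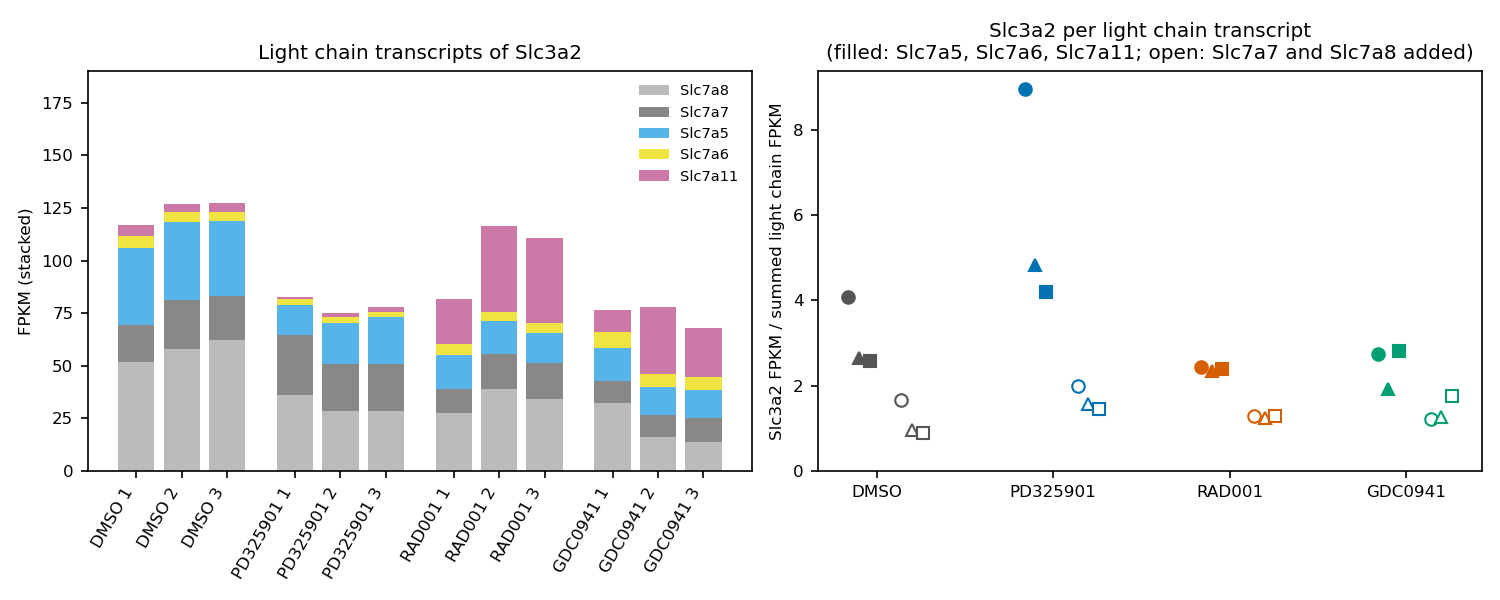
Left, FPKM of the light chain transcripts of Slc3a2, stacked for each of the 12 libraries; right, Slc3a2 FPKM divided by summed light chain FPKM in each library by group, with 3 light chains (filled) and with Slc7a7 and Slc7a8 added (open); circles, triangles and squares are replicates 1, 2 and 3. Slc7a11 makes up 50.4% to 67.9% of the 3 light chains in RAD001 and 7.48% to 10.6% in DMSO, and the PD325901 ratios of 4.21 to 8.97 lie above DMSO for 3 light chains only.

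The counts of the related lists are read against the shares of all genes called higher and lower: 18.4% and 28.2% with PD325901, 15.4% and 15.9% with RAD001, and 11.6% and 12.7% with GDC0941. Among 34 other plasma membrane amino acid transporters, 8 were high enough to test. Of these, Slc6a9 passed the filter mainly through DMSO, at 2.30 to 3.43 FPKM, against 0.262 to 1.62 FPKM in the inhibitor libraries. With PD325901, 2 rose and 2 fell (median 0.28): Slc43a2, a relative of Slc43a1, rose from 57.3 ± 6.23 to 106 ± 10.3 FPKM (SD, n = 3; log2 change 0.88 ± 0.12 SE, adjusted p = 0.000204), Slc36a1, a proton-coupled carrier, rose (0.93 ± 0.17, adjusted p = 0.00109), and Slc6a9, a glycine carrier, fell by 1.52 ± 0.13 (adjusted p = 1.11e-05). With RAD001 none rose by limma's adjusted p, nor at an unadjusted p under 0.05, and 2 fell (median -0.12), Slc6a9 by 0.66 ± 0.13 (adjusted p = 0.00399) and Slc7a8 by 0.77 ± 0.25 (adjusted p = 0.0371). The Slc7a8 call ended without any 1 DMSO library or RAD001 replicate 1 or 3, where adjusted p was 0.0535 to 0.109. With GDC0941 likewise none rose at either level and 3 fell (median -0.35): Slc6a9 by 1.34 ± 0.13 (adjusted p = 9.47e-05), Slc7a8 by 1.53 ± 0.25 (adjusted p = 0.0017) and Slc7a7 by 0.85 ± 0.16 (adjusted p = 0.00321). Slc7a7 and Slc7a8 are further partners of Slc3a2. With PD325901 the Slc7a8 libraries were 28.2 to 35.8 FPKM, also below the 51.9 to 62.3 FPKM of DMSO.

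Carriers on internal membranes were described from 2 lists. Of 7 tested lysosomal transporters, 4 rose and none fell with PD325901, adjusted or unadjusted (median 0.40), among them the histidine and peptide carrier Slc15a4 (0.87 ± 0.07, adjusted p = 8e-06), the cystine exporter Ctns (0.76 ± 0.12, adjusted p = 0.000536) and the cationic amino acid exporter Pqlc2 (0.66 ± 0.12, adjusted p = 0.00126). With RAD001, Slc15a3 rose (0.63 ± 0.09, adjusted p = 0.000683) and Ctns fell by 0.45 ± 0.12 (adjusted p = 0.016), a call that ended without DMSO replicate 3 (adjusted p = 0.0701) or RAD001 replicate 1 (adjusted p = 0.0511). With GDC0941 only Pqlc2 passed, falling by 0.48 ± 0.12 (adjusted p = 0.0158; 0.0584 without DMSO replicate 2 and 0.0608 without GDC0941 replicate 2). Of 9 tested mitochondrial carriers, 1 rose and 2 fell with PD325901, 2 rose and 1 fell with RAD001, and 1 rose and 1 fell with GDC0941. The serine carrier Sfxn1 fell by 1.26 ± 0.11 with PD325901 (adjusted p = 1.1e-05), and its relative Sfxn3 rose by 1.01 ± 0.15 with RAD001 (adjusted p = 0.000554) and by 1.16 ± 0.15 with GDC0941 (adjusted p = 0.000393). Each was also called in the same direction elsewhere. Sfxn3 rose with PD325901 (0.33 to 0.47 with 1 library left out). That call ended without DMSO replicate 1 or 2 or PD325901 replicate 2 or 3, where adjusted p was 0.0915 to 0.130. Sfxn1 fell with RAD001 (-0.49 to -0.29 with 1 library left out). The call ended without DMSO replicate 2 or 3 or RAD001 replicate 2 or 3, where adjusted p was 0.0927 to 0.124. It also ended when only those 2 groups were fitted with limma (adjusted p = 0.0717).

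The genes that report amino acids to mTOR complex 1 gave 2 higher and 5 lower of 21 tested with PD325901, 1 and 5 with RAD001, and 2 and 3 with GDC0941. These counts stand beside 46.6%, 31.3% and 24.3% of all genes called, and are below or near those shares. The sestrins, of which Sesn2 is a leucine sensor, led the falls with RAD001 and GDC0941. Sesn2 fell by 0.78 ± 0.09 with RAD001 (adjusted p = 0.000137) and by 1.37 ± 0.09 with GDC0941 (adjusted p = 1.13e-05). Sesn3 fell by 1.00 ± 0.17 (adjusted p = 0.00148) and by 1.37 ± 0.17 (adjusted p = 0.000382), and Sesn1 by 1.32 ± 0.20 with RAD001 (adjusted p = 0.000751). Lamtor4, part of the lysosomal anchor of the complex and listed under an older symbol, rose by 0.84 ± 0.12 with GDC0941 (adjusted p = 0.000745). With PD325901 the leading calls were Sec13 (-0.59 ± 0.08, adjusted p = 0.000186), Wdr59 (-0.48 ± 0.12, adjusted p = 0.00592) and Rraga (-0.48 ± 0.12, adjusted p = 0.00608).

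Enzymes that use the transported amino acids fell in 11 and rose in 4 of 17 tested with PD325901 (median -0.52), where 28.2% of all genes fell and 18.4% rose. With RAD001, 5 fell and 6 rose, and with GDC0941, 3 fell and 3 rose, where 31.3% and 24.3% of all genes were called. Asns, the asparagine synthetase that consumes glutamine, fell with each inhibitor, from 64.3 ± 6.42 FPKM in DMSO to 26.1 ± 1.20 with PD325901, 17.8 ± 0.234 with RAD001 and 24.6 ± 5.92 with GDC0941 (SD, n = 3). Its adjusted p-values were 3.93e-05, 1.47e-05 and 9.35e-05. Wars, the tryptophanyl-tRNA synthetase, fell by 0.69 ± 0.09 with PD325901 (adjusted p = 9.77e-05) and by 0.61 ± 0.09 with RAD001 (adjusted p = 0.000481). Bckdha, a subunit of the branched-chain keto acid dehydrogenase, rose by 0.66 ± 0.08 (adjusted p = 8.23e-05) and by 0.40 ± 0.08 (adjusted p = 0.00333) with the same inhibitors. With GDC0941, Arg2, an arginase, rose by 1.51 ± 0.22 (adjusted p = 0.000792) and Mat2a, which makes S-adenosylmethionine, by 0.61 ± 0.10 (adjusted p = 0.00199).

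**Figure D4:**
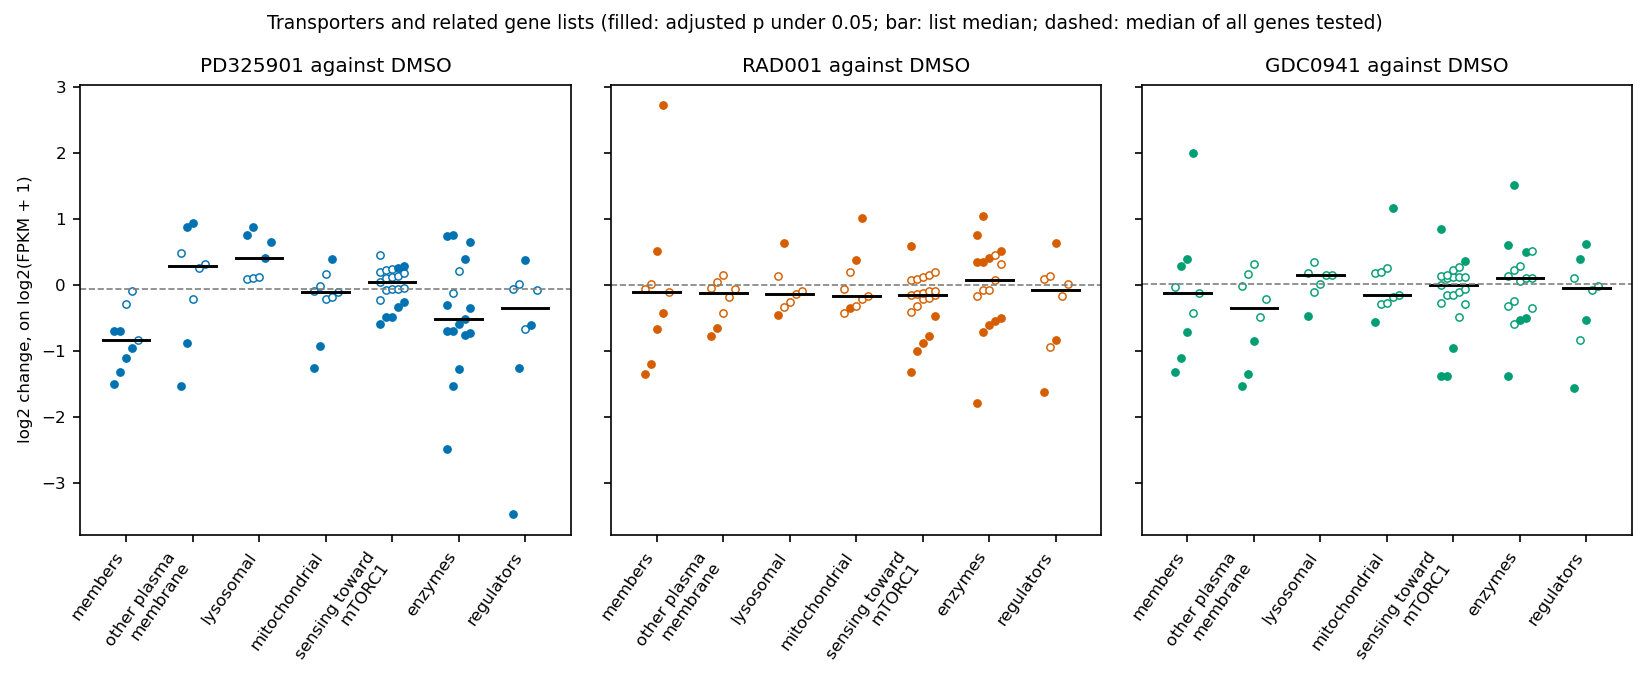
Log2 change against DMSO (vertical axis, on log2(FPKM + 1)) of each tested gene in the transporter set and the related lists (horizontal axis), 1 panel per inhibitor; filled points have an adjusted p under 0.05, bars are list medians and the dashed line the median of all genes tested. The transporter median is -0.83 with PD325901, -0.10 with RAD001 and -0.12 with GDC0941.

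Regulators known to act on these promoters are given for their transcripts only; protein was not measured. Atf4 fell with each inhibitor: its libraries were 259, 212 and 204 FPKM in DMSO, 156, 146 and 137 with PD325901, 131, 120.1 and 125 with RAD001 and 183, 122 and 167 with GDC0941. The changes were -0.61 ± 0.14 (adjusted p = 0.0041), -0.83 ± 0.14 (adjusted p = 0.00127) and -0.53 ± 0.14 (adjusted p = 0.0184), the last not called without DMSO replicate 1 (adjusted p = 0.0674). Trib3, a target and inhibitor of ATF4, fell by 1.63 ± 0.30 with RAD001 (adjusted p = 0.00221) and by 1.55 ± 0.30 with GDC0941 (adjusted p = 0.00392). Trib3 libraries were 9.88 to 11.4 FPKM with PD325901 and 20.3 to 39.8 FPKM in DMSO. Myc went from 22.5 ± 2.84 FPKM in DMSO to 1.11 ± 0.131 with PD325901 (-3.47 ± 0.10, adjusted p = 7.41e-09), 35.5 ± 3.47 with RAD001 (0.64 ± 0.10, adjusted p = 0.00113) and 35.0 ± 1.67 with GDC0941 (0.62 ± 0.10, adjusted p = 0.00185; SD, n = 3). Nfe2l2, whose factor binds antioxidant elements, was 73.7 ± 6.9, 74.1 ± 6.46, 75.2 ± 13.5 and 70.1 ± 8.96 FPKM in DMSO, PD325901, RAD001 and GDC0941, with no call. Eif2ak3, a kinase that raises ATF4 translation, rose by 0.38 ± 0.09 with PD325901 (adjusted p = 0.0044) and by 0.39 ± 0.09 with GDC0941 (adjusted p = 0.0085).

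Genes with the nearest pattern were sought for the 3 transporters whose group means varied most, among 7544 other genes whose average reached 5 FPKM. Likeness was the mean absolute difference of the log2 ratio to the DMSO mean over the 9 inhibitor libraries. For Slc7a11 the nearest were Plaur (0.596), the urokinase receptor, Mmp8 (0.635), neutrophil collagenase, and Clcf1 (0.644), a cytokine. All 3 were higher with RAD001 and GDC0941, which the choice by likeness over these same libraries builds in. With PD325901 their log2 changes were -0.08, 0.19 and -0.07, where that of Slc7a11 was -0.83. Clcf1 averaged 1.85 FPKM in DMSO and 1.63 with PD325901. It reached the 5 FPKM average only through RAD001 (14.6) and GDC0941 (5.09). The nearest to Slc1a5 were Mrps28 (0.141), Gnl3 (0.148) and Cct6a (0.162). The nearest to Slc7a1 were Rars (0.224), the arginyl-tRNA synthetase, Snrpa1 (0.253) and Mthfd1l (0.255). Slc7a11 thus had no neighbour as close on this measure as those of Slc1a5 and Slc7a1. The distance is not scaled to the size of a gene's change. The larger changes of Slc7a11 and its larger spread between replicates both enter it, so the distances do not rank how well patterns match.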

How the data were processed

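RNA of 12 libraries (4 groups of 3) was measured. The values are FPKM per gene symbol in 1 table deposited by the authors, made with TopHat2 2.0.4 and Cuffdiff on mm9, per the submitters' processing notes. For the Cuffdiff version, the annotation and any scaling of libraries, the answer is not given in the sources used here. Because FPKM are not counts, no count model was used. Reads of overlapping or antisense genes cannot be told apart from FPKM alone.

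Values were transformed to log2(FPKM + 1). The 10305 genes averaging 1 FPKM or more were fitted with limma 3.58.1 in R 4.3.3, with 4 group means and a trended prior variance. Tests were two-sided, adjusted by Benjamini-Hochberg within each comparison, with a threshold of 0.05. Ratios of FPKM were compared by exact permutation with scipy 1.17.1.

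The transporters and the related lists were chosen with earlier results of these data known, so their counts are not independent evidence. All 10 transporters are named. From each related list the text names at most 3 called genes per comparison, those with the smallest adjusted p, plus Atf4, Myc and Nfe2l2. Outside that rule, Slc7a8 and Trib3 are given with PD325901 as levels only. Of 162 listed symbols, 161 were found, 7 under an older symbol.

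Replicate numbers come from the labels. Deviations of same-numbered libraries correlated above 0.1 in all 3 pairs for PD325901 and DMSO (lowest 0.183), RAD001 and DMSO (0.201), RAD001 and PD325901 (0.149) and RAD001 and GDC0941 (0.309), but not for GDC0941 and DMSO (0.0354) or GDC0941 and PD325901 (-0.139). The best match was the same number in 3 of 3 libraries for PD325901 and DMSO. It was so in 1 of 3 for RAD001 and DMSO and for RAD001 and PD325901, and in 2 of 3 for RAD001 and GDC0941. Pairing is therefore not settled. The main fit had no replicate term, and a replicate block was an alternative.

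On simulated data for the 10305 genes, planted log2 changes of 0.5, 1 and 2 were recovered at 44.8%, 91.0% and 98.5% for PD325901 against DMSO, 56.7%, 91.0% and 100% for RAD001, and 49.3%, 92.5% and 100% for GDC0941. Of the calls made there, 3.11%, 5.17% and 6.94% were false, in the same order. In each comparison 67, 67 and 66 genes were changed by these sizes, with independent noise and no shared replicate effect. In the data 24.3% to 46.6% of genes were called against DMSO, so these rates hold for the simulated setting only. Alternatives were pseudocounts of 0.1 and 5 FPKM, no filter and a filter at 5 FPKM, 2 other scalings, a replicate block, no trend, library weights, fits of only the 2 groups compared, and libraries left out.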

Additional observations from a re-analysis of the deposited data

How the results depend on the processing

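Of 54 transporter changes (9 genes, 6 comparisons), 33 were called; 18 of these were called under every alternative that tested them and 28 under every alternative that kept all libraries, and none of the 33 changed direction. The number called of 9, with libraries left out, ranged from 6 to 7 for PD325901 against DMSO, 3 to 7 for RAD001 against DMSO, 1 to 6 for GDC0941 against DMSO, 4 to 7 for PD325901 against RAD001, 4 to 6 for PD325901 against GDC0941 and 0 to 5 for RAD001 against GDC0941. The lowest counts came from leaving out 1 replicate number of all groups, which leaves 2 libraries each. In those fits the share of all genes called moved too, from 22.1% to 55.2%, 5.27% to 47%, 2.03% to 41.9%, 28.7% to 57.7%, 30.8% to 59.1% and 1.89% to 33.3% in the same order, highest without replicate 1 and lowest without replicate 2. For RAD001 against GDC0941 the count of 0 came without replicate 2 or 3, where limma gave 3 of 9 at an unadjusted p under 0.05. Leaving out 1 library gave at least 4 calls for GDC0941 against DMSO and at least 2 for RAD001 against GDC0941. With the replicate block the counts were 7, 6, 6, 5, 6 and 3 in the same order, and no transporter call changed besides Slc7a11 and Slc38a1 as given above. A filter at 5 FPKM removed Slc1a4 and Slc7a6 from the test. With only the 2 groups compared in the limma fit, calls ended for Slc7a6 (adjusted p = 0.0812), Slc1a5 (0.0916) and Atf4 (0.072) with GDC0941. They also ended for Ctns (0.0508) and Sfxn1 (0.0717) with RAD001, Slc7a5 in PD325901 minus GDC0941 (0.0995) and Slc7a6 in RAD001 minus GDC0941 (0.0697).

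Uncalled changes near 0 reversed under some alternatives; the cause was not tested. With quantile normalization, Slc7a6 with RAD001 was 0.027, Nfe2l2 with RAD001 -0.072 and Slc1a4 in PD325901 minus GDC0941 -0.11. With library weights, RAD001 minus DMSO was -0.078 for Slc38a1 and 0.24 for Slc3a2 (adjusted p = 0.0481), PD325901 minus RAD001 was -0.25 for Slc3a2, and GDC0941 minus DMSO was 0.088 for Slc38a2 and 0.0093 for Nfe2l2. With 5 light chains the ratio of Slc3a2 to its light chains was 0.0957 above DMSO with RAD001 and 0.244 above it with GDC0941, against differences of -0.71 and -0.61 with 3.

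Without replicate 1 of every group, RAD001 minus DMSO was 0.29 for Slc3a2, -0.089 for Slc38a1 and -0.061 for Nfe2l2, GDC0941 minus DMSO was 0.072 for Slc38a2 and 0.0093 for Nfe2l2, and PD325901 minus RAD001 was -0.30 for Slc3a2. Without replicate 2 of every group, Nfe2l2 with RAD001 was -0.12 and Slc1a4 in PD325901 minus GDC0941 -0.056. Without replicate 3 of every group, GDC0941 minus DMSO was 0.055 for Slc38a1, 0.020 for Slc38a2 and 0.020 for Nfe2l2, Slc1a4 in PD325901 minus GDC0941 was -0.15 and Slc7a1 in RAD001 minus GDC0941 -0.15. Leaving out 1 library at a time, Slc3a2 ranged from -0.25 to 0.15 with PD325901, -0.25 to 0.14 with RAD001 and -0.15 to 0.11 in PD325901 minus RAD001. Slc38a1 ranged from -0.066 to 0.058 with RAD001, -0.22 to 0.012 with GDC0941 and -0.0025 to 0.23 in RAD001 minus GDC0941. Slc7a6 with RAD001 ranged from -0.13 to 0.010, Slc38a2 with GDC0941 from -0.14 to 0.094, Slc1a4 in PD325901 minus GDC0941 from -0.074 to 0.13 and Slc7a1 in RAD001 minus GDC0941 from -0.11 to 0.19. Nfe2l2 ranged from -0.065 to 0.081 with PD325901 and -0.077 to 0.17 with RAD001.

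Over all genes the share called with GDC0941 was 24.3%, but 37.4% with library weights, 15.9% without a filter and 16.9% with only the 2 groups. With RAD001 it was 31.3%, but 67.2% with weights and 20.3% without a filter, and between RAD001 and GDC0941 17.4%, but 29.6%, 9.56% and 6.80%. Under quantile normalization 2633 genes were higher and 2494 lower with PD325901, against 1893 and 2909 as deposited. The table holds no read counts, so single values have no counting interval.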

Other observations

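A relative outside the set stood out after its values were seen. Slc36a2, a proton-coupled carrier of small amino acids, was below the filter and not tested. It was 2.96, 3.82 and 3.00 FPKM with PD325901 and 0.0878 to 0.180 FPKM in DMSO, 0.0608 to 0.128 with RAD001 and 0.0774 to 0.183 with GDC0941, so all PD325901 libraries lay above all 9 others. Slc7a3, a cationic amino acid carrier also below the filter, was 0.450 to 0.675 FPKM in DMSO and 0.0219 to 0.159 FPKM in the inhibitor libraries.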
